A study of Mus musculus with 12 samples.

Results

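In a mouse model of acute myeloid leukemia with the MLL-AF9 fusion, the sorted leukemic granulocyte-macrophage progenitor fraction (L-GMP) was compared with the whole leukemia, over both AMPK genotypes at once. The comparison used all 12 of the 12 arrays of the series, 6 of L-GMP and 6 of whole leukemia, with genotype as a covariate. The value of interest is therefore the population difference averaged over wild-type and knockout leukemias. Such an average need not be present in each genotype. Both fractions were sorted by population, not by a measured expression value, and the members are all 17749 genes that passed a filter on dim signal. Each of the 4 groups held 3 arrays. All animals were of the C57BL/6J strain, recipients had received 10 Gy of irradiation and 50000 donor progenitor and stem cells carrying MLL-AF9, and bone marrow was collected when each recipient developed leukemia. Wild-type donors had the floxed alleles AMPKfl/fl, and knockout donors had the deleted alleles AMPKΔ/Δ. Whole leukemia was every GFP+ cell, and L-GMP cells were GFP+, lineage-negative, c-kit+, CD16/32+ and CD34+, with 5000 cells sorted per sample. L-GMP cells are therefore also part of the whole leukemia they were compared with. The labels do not name the deleted AMPK subunit, the Cre line, the antibodies of the lineage gate or the age of the mice, nor do they state that the replicates of a group came from separate animals. The p-values therefore cover only the sample-to-sample spread, part of which may be technical.

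Granulocyte-macrophage progenitors are the marrow cells that normally give rise to neutrophils and monocytes. In MLL-AF9 leukemia, cells with this surface phenotype are known to hold most of the leukemia-initiating activity, and the MLL fusion keeps a HoxA and Meis1 program of self-renewal active in them. The bulk of the leukemia holds more differentiated blasts that carry part of the neutrophil and monocyte program. In normal myelopoiesis, primary granule proteases are made at the progenitor stage, secondary granule proteins and surface receptors of phagocytes follow later, and growth and ribosome production decline as cells mature.

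In the log2 difference of L-GMP minus whole leukemia over both genotypes, lists of mature neutrophil, monocyte and phagocyte genes had medians of -1.53, -0.41 and -0.41. Lists of ribosome production, MYC-driven growth and mitochondrial import had medians of 0.43, 0.40 and 0.36. All lists were written with earlier results of these data known, so their counts carry no test, and they cover only part of the genes that differed most. The difference was not even over the arrays. In knockout number 1, mean levels in whole leukemia and L-GMP were close for ribosome production (7.88 and 7.85) and MYC targets (8.54 and 8.51). They were also close there for mitochondrial (7.56 and 7.59), monocyte (6.79 and 6.77) and phagocyte genes (6.94 and 7.01). Neutrophil genes had 8.31 and 7.82. No single gene passed the test. Limma with Benjamini-Hochberg adjustment called 0 of 17749 genes (0.0%), and the lowest adjusted p was 0.613. At an unadjusted p under 0.05 limma had 1413 genes (7.96%), where 887 correspond to 5% of all genes, of which 722 were higher in L-GMP (4.07%) and 691 lower (3.89%). The exact two-sided permutation test of each gene within genotype, over 400 relabellings and with 0.005 as its smallest possible p, had 1251 genes under 0.05 (7.05%), 3.5% higher and 3.54% lower. The median standard error of a population difference was 0.11 log2, which gives a median 95% half-width of 0.24. Every list of genes below is therefore described by its counts and its median beside those of all genes, of which 51.4% had a higher and 48.6% a lower value in L-GMP, with a median difference of 0.00.

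The size of the differences was uneven between directions. By at least 1 log2 (a 2-fold difference), 102 genes were lower in L-GMP (0.575%) and 3 were higher (0.0169%). Of the 102 genes, 99 were lower in both genotypes and 66 in 6 of 6 differences of equal genotype and number. Over all genes, 59.3% had the same sign in both genotypes. In 6 of 6 such differences, 6.73% of all genes kept 1 direction, 669 of them higher (3.77%) and 525 lower (2.96%). The 102 were chosen by their value over both genotypes, so the counts of 99 and 66 follow in part from that choice. The lists of neutrophil, monocyte or phagocyte genes held 31 of the 102. These lists were written with earlier results of these data known and include genes of lineage antigens, so the 31 carries no test. The 6 arrays of one population lay wholly apart from the 6 of the other for 27 genes that were higher (0.152%) and 36 that were lower (0.203%). The counts at 1 log2 depended on the knockout arrays: 162 genes were lower without knockout whole leukemia array 1, 74 without knockout whole leukemia array 2, of which 69 were among the 102, and 56 without both number-2 knockout arrays.

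The arrays were first compared with each other. Knockout whole leukemia array 2 had a score of 67.4 on principal component 1 (32.4% of variance), and the others had scores of -24.2 to 18.5. Its median correlation with the other arrays was 0.889, against 0.937 to 0.972 for the rest. Knockout L-GMP array 2 had a score of -41.3 on component 2 (17% of variance). Prkaa1, the catalytic alpha 1 subunit of AMPK, measured 8.24 ± 0.49 (SD, n = 3) in wild-type and 7.27 ± 0.27 in knockout whole leukemia, and 8.15 ± 0.17 and 7.0 ± 0.27 in L-GMP, and Prkaa2, the alpha 2 subunit, lay near the dim filter at 4.76 to 4.88 in all 4 groups. Results below that moved most without these arrays are given with and without them.

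The gate genes check the sort and are no finding, since they defined it. Cd34, the surface sialomucin of the gate, measured 8.48, 9.38 and 8.35 log2 units in wild-type whole leukemia and 5.54, 6.65 and 7.05 in knockout whole leukemia. In L-GMP it measured 9.67, 10.05 and 9.57 in the wild type and 9.45, 9.90 and 9.66 in the knockout. All L-GMP arrays lay above all whole leukemia arrays, by 2.14 (SE 0.41, 4.41-fold), with 1.03 in wild-type and 3.26 in knockout leukemias. Kit, the stem cell factor receptor c-Kit, had a difference of 0.85 (SE 0.33) and was higher in 5 of 6 same-number differences. The CD16 and CD32 genes Fcgr3 and Fcgr2b had differences of -0.12 (SE 0.13) and 0.21 (SE 0.21), and the related receptor genes Fcgr4 and Fcgr1 had -0.77 (SE 0.32) and 0.02 (SE 0.07). Among genes of common lineage antigens, Itgam (CD11b) had a difference of -1.33 (SE 0.44), Ly6g, the neutrophil antigen, one of -1.58 (SE 0.68, or -0.93 without knockout whole leukemia array 2) and Ptprc (CD45) one of -0.47 (SE 0.15). The T and NK antigens Cd3e, Cd4, Cd8a and Klrb1c had differences of -0.15 to -0.05.

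Genes of late neutrophil maturation had the lowest median difference of the 44 lists. The list holds Ly6g, and the L-GMP gate was lineage-negative, so lower values here are not independent of the sort. All 26 tested members were lower in L-GMP (48.6% of all genes were), with a median difference of -1.53. Of these, 18 were lower at an unadjusted p under 0.05 by limma (3.89% of all genes were). In 6 of 6 same-number differences 15 were lower (2.96% of all genes were). The median was -1.04 in wild-type and -1.82 in knockout leukemias, and -1.30 without both number-2 knockout arrays, where all 26 remained lower. Mmp8, the neutrophil collagenase, measured 10.59, 7.43 and 9.52 in wild-type whole leukemia and 8.06, 11.37 and 8.83 in the knockout. It measured 6.57, 5.29 and 8.91 in wild-type L-GMP and 6.24, 5.33 and 5.07 in knockout L-GMP. The populations overlapped through wild-type L-GMP array 3, while each L-GMP array lay below the whole leukemia array of its own number. The difference was -3.07 (SE 0.78, 95% interval -4.77 to -1.36), an 8.38-fold lower intensity. Mmp8 had an unadjusted p = 0.01 by the exact permutation test, by which 7.05% of all genes were under 0.05. It did not pass by limma. Fpr2, a formyl peptide receptor that guides neutrophils to bacterial products, ranged from 6.83 to 9.74 in whole leukemia (median 8.53) and from 4.92 to 7.59 in L-GMP (median 5.67). Its difference was -2.42 (SE 0.57), lower in 6 of 6 same-number differences.

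S100a8 and S100a9 encode the subunits of calprotectin, the abundant cytosolic antimicrobial protein of neutrophils. S100a8 measured 10.44, 10.38 and 12.14 in wild-type and 11.85, 12.64 and 12.15 in knockout whole leukemia. It measured 9.23, 7.98 and 11.45 in wild-type and 10.96, 11.10 and 9.91 in knockout L-GMP. The populations overlapped, but each L-GMP array lay below the whole leukemia array of its number, with a difference of -1.50 (SE 0.53) for S100a8 and -1.45 (SE 0.57) for S100a9. The secondary granule genes Camp (cathelicidin, -2.27, SE 0.94), Ltf (lactoferrin, -2.22, SE 0.91) and Ngp (-1.91, SE 0.79) were lower in 6 of 6 differences, as were the gelatinase gene Mmp9 at -2.06 and the decoy interleukin-1 receptor gene Il1r2 at -1.99 (SE 0.49). Retnlg, a resistin-like gene of mature neutrophils, had -1.0 in wild-type and -4.60 in knockout leukemias. In wild-type whole leukemia it measured 4.48, 4.52 and 8.53, so that only array 3 stood above the dim filter of 4.72 there, and its interaction of genotype and population did not pass (adjusted p = 1.0 by limma). Stfa3, a cysteine protease inhibitor of the stefin A cluster, had the largest difference of all genes at -3.42 (SE 0.99). The cluster holds near-identical copies, so values of single members, also Stfa1, Stfa2, Stfa2l1, Cstdc4, Cstdc5 and Csta3, are uncertain.

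The levels of selected genes in each array are shown next.

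**Figure D1:**
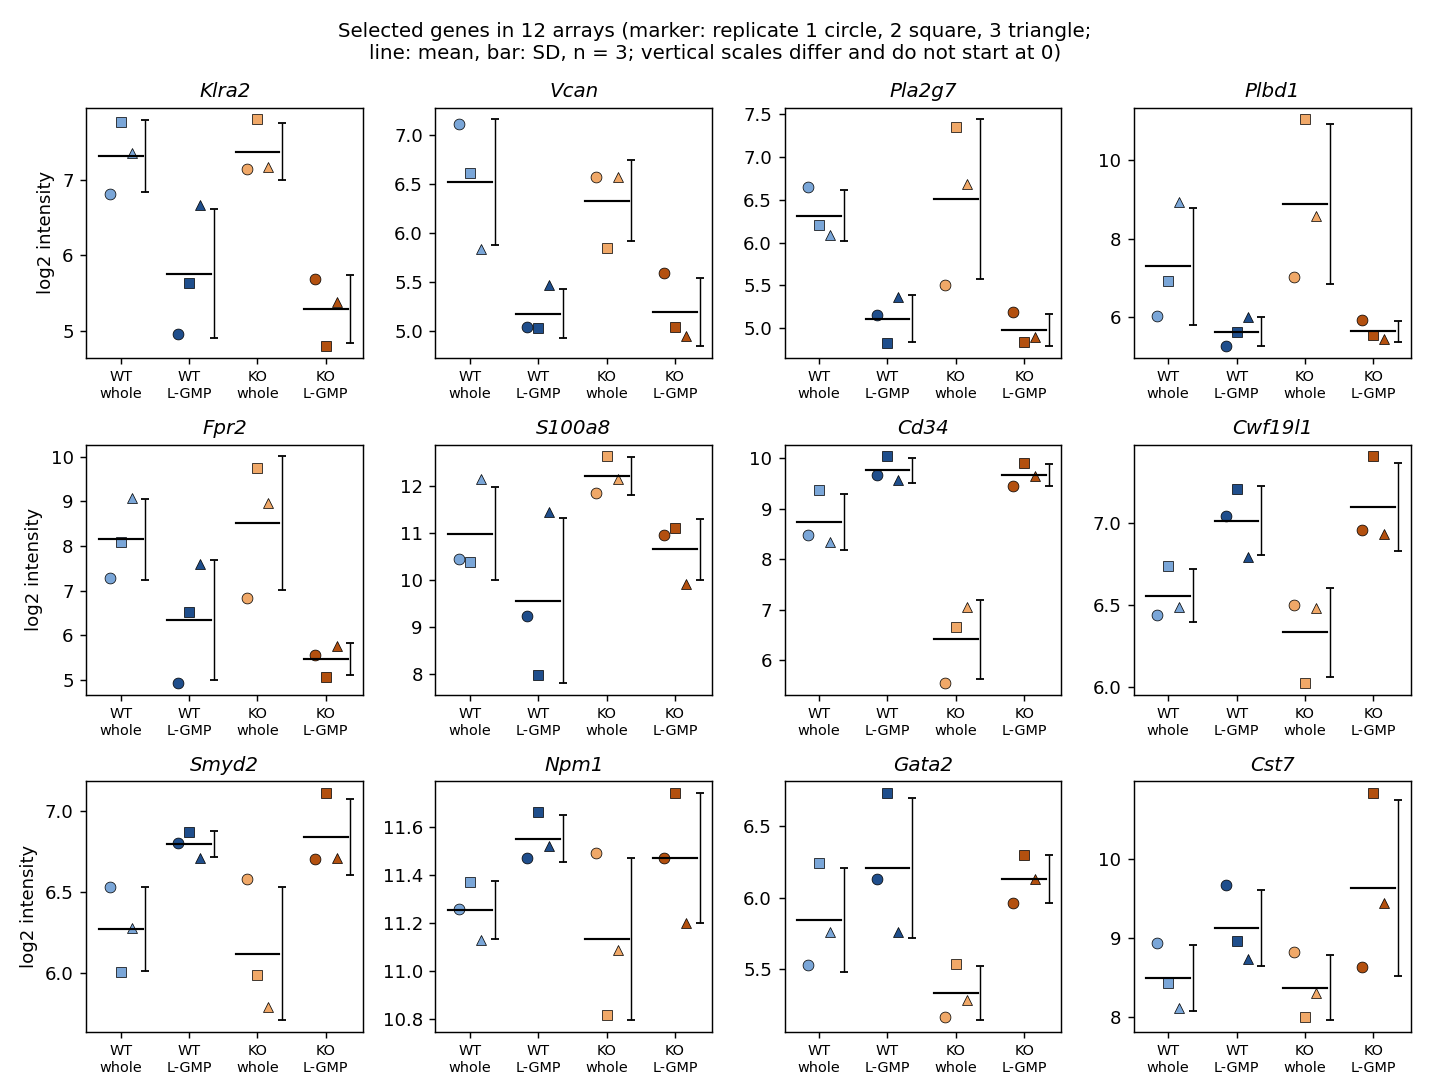
Log2 intensity (vertical axes, which differ between panels and do not start at 0) of 12 selected genes in the 12 arrays, grouped by genotype and population (horizontal axis). Points are arrays with the marker giving the replicate number, lines are means and bars the SD of 3 arrays. Klra2, Vcan, Pla2g7 and Plbd1 are lower and Cwf19l1 and Smyd2 higher in all 6 L-GMP arrays, S100a8, Fpr2, Npm1, Gata2 and Cst7 overlap between populations, and Cd34 is a gate gene.

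PU.1 is the transcription factor needed for both neutrophil and monocyte development, and because the maturation genes had low values together, their promoters were searched for its site. The motif GAGGAAGT, on either strand in the 250 bases before the most upstream start, was in 2.31% of the promoters of 13700 tested genes with a RefSeq promoter (GRCm38.p6). It was in 8.43% of promoters of genes lower by at least 1 log2 (7 of 83), in 21.7% of the neutrophil list (5 of 23) and in 5.13% of the monocyte list (2 of 39), but also in 11.1% of the nucleolus list (4 of 36), whose genes had higher values in L-GMP, and in 0 of 26 promoters of genes with all arrays apart and lower. The other motifs were searched in the same way. In the neutrophil list the C/EBP site (TTGCGCAA or TTGCACAA) was in 0 of 23 promoters against 0.912% of all promoters. The AP-1 site TGACTCA was in 4.35% (1 of 23) against 3.53%. The CCAAT box was in 43.5% (10 of 23) against 35.5%, and the CHR element TTTGAA in 8.7% (2 of 23) against 11.8%. These shares describe letters and show no binding. The sets share genes, and for rare sites a count of 0 in so few promoters cannot be told from the share of all promoters. The sequences below are the 60 bases around the match in 3 neutrophil genes and in the receptor gene Pirb, printed in the direction of transcription with the PU.1 letters in capitals. They lie at chr9:7558182-7558241 on the plus strand (Mmp8), chr3:90668873-90668932 on the plus strand (S100a8), chr14:80000195-80000254 on the plus strand (Olfm4) and chr7:3720469-3720528 on the minus strand (Pirb).
Mmp8: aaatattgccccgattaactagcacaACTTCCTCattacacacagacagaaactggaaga
S100a8: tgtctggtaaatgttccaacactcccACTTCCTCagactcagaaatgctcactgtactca
Olfm4: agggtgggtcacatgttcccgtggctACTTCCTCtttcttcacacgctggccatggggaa
Pirb: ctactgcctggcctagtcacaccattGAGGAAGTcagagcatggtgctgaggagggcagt
In Mmp8, S100a8 and Olfm4 the letters are those of the opposite strand. Olfm4, olfactomedin 4 of a subset of neutrophils, had a difference of -1.57 (SE 0.87).

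Monocyte and macrophage genes were also lower in L-GMP, in 39 of 46 tested members (48.6% of all genes were). The median was -0.41 (-0.57 in wild-type and -0.25 in knockout leukemias). At an unadjusted p under 0.05 by limma 20 were lower (3.89% of all genes were). For 5 members the 6 L-GMP arrays lay wholly below the 6 whole leukemia arrays (0.203% of all genes did). The list holds Fcgr4, Fcgr1 and Itgam, named above as checks of the sort, so its counts are not independent of the gate either. Vcan encodes the matrix proteoglycan versican, a gene of inflammatory monocytes. It measured 7.11, 6.61 and 5.84 in wild-type and 6.57, 5.85 and 6.57 in knockout whole leukemia. It measured 5.04, 5.03 and 5.47 in wild-type and 5.59, 5.04 and 4.95 in knockout L-GMP. The populations did not overlap, and the difference of -1.24 (SE 0.22, 95% interval -1.72 to -0.76) was of like size in the wild type (-1.34) and the knockout (-1.13), although it did not pass (adjusted p = 0.613 by limma). Pla2g7, the phospholipase that degrades platelet-activating factor, ranged from 5.50 to 7.35 in whole leukemia (median 6.43) and from 4.82 to 5.36 in L-GMP (median 5.02). Its difference was -1.37 (SE 0.26), again without overlap.

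The chemokine gene Ccl6 had a difference of -1.35 (SE 0.31), and its arrays did not overlap either. Other members lower in 6 of 6 same-number differences were Tgfbi, a matrix protein induced by TGF-beta (-1.70, SE 0.38), and Fn1, fibronectin (-1.96, SE 0.54), whose L-GMP levels ran from 6.02 to 10.94. Msr1, the macrophage scavenger receptor, had -0.64 (SE 0.20) and Ms4a7 -0.21 (SE 0.06), both with all arrays apart. Csf1r and Ccr2, receptor genes of monocytes, had opposite signs in the genotypes. Limma called 0 genes for the interaction of genotype and population, so these signs do not establish a difference between genotypes. Csf1r, the receptor for macrophage colony-stimulating factor, had -0.70 in wild-type and 0.25 in knockout leukemias. The chemokine receptor Ccr2 had -0.65 and 0.15. Ly6c2, the Ly6C antigen gene of inflammatory monocytes, was bright in all samples, from 11.47 to 12.32 in whole leukemia and 11.52 to 12.40 in L-GMP.

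Receptors of phagocytosis and innate sensing were lower in 31 of 33 tested members (48.6% of all genes were), with a median of -0.41. Of these, 9 were lower at an unadjusted p under 0.05 by limma (3.89% of all genes were). The median was -0.28 without knockout L-GMP array 2. Pirb, an inhibitory receptor of myeloid cells that binds MHC class I, measured 9.21, 8.98 and 9.43 in wild-type and 7.09, 9.60 and 9.03 in knockout whole leukemia. It measured 6.41, 7.63 and 8.75 in wild-type and 5.97, 5.72 and 7.06 in knockout L-GMP. Its difference was -1.97 (SE 0.48), lower for every number, with knockout whole leukemia array 1 reaching into the L-GMP range. Cybb, the catalytic subunit of the phagocyte NADPH oxidase, had -1.61 (SE 0.46), with -1.56 in wild-type and -1.65 in knockout leukemias. The nucleic acid sensors Tlr13 (-1.54, SE 0.45) and Tlr8 (-0.81, SE 0.22) and the complement receptor C5ar1 (-1.40) were lower in 6 of 6 differences. Lilrb4a, another inhibitory receptor, measured 8.94 to 11.50 in whole leukemia and 6.19 to 9.32 in L-GMP, a difference of -2.44 (SE 0.55). Pirb and Lilrb4a belong to receptor families with near-identical copies, so their values are uncertain.

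The gene with the lowest p of all was Klra2, a lectin-like receptor of the Ly49 family. It measured 6.81, 7.76 and 7.35 in wild-type and 7.14, 7.80 and 7.17 in knockout whole leukemia. It measured 4.97, 5.64 and 6.66 in wild-type and 5.69, 4.80 and 5.39 in knockout L-GMP. All L-GMP arrays lay below all whole leukemia arrays, with differences of -1.55 in the wild type, -2.07 in the knockout and -1.81 over both (SE 0.29, 3.51-fold, adjusted p = 0.613 by limma). Slc15a3, a lysosomal transporter of bacterial peptides, had a difference of -1.49 (SE 0.29), with 6.33 to 7.75 in whole leukemia and 4.97 to 6.32 in L-GMP. Plbd1, a granule phospholipase, measured 6.04, 6.91 and 8.94 in wild-type and 7.03, 11.04 and 8.57 in knockout whole leukemia, against 5.26 to 6.01 in all L-GMP arrays. The L-GMP values were even and the whole leukemia values spread over 5 log2 units, so the difference of -2.45 had an SE of 0.66, and it was -1.88 without knockout whole leukemia array 2. Further named genes with all arrays apart and a difference of at least 1 log2 were the receptor phosphatase gene Ptprj (-1.06, SE 0.24), the membrane protease gene Adam8 (-1.22), the extracellular matrix gene Ecm1 (-1.09), Tmem154 (-1.17) and Sirpb1c (-1.03). Ms4a8a (-1.18, SE 0.24), the kinase gene Grk5 (-1.16, SE 0.26), the ubiquitin ligase gene Marchf1 (-0.60, SE 0.13) and Bmf, a pro-apoptotic member of the BCL2 family (-0.43, SE 0.09), were also among the 12 of lowest p in that direction and did not pass.

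Markers of other cells were set beside these values. The 15 tested erythroid genes were all lower in L-GMP by the 12-array fit, with a median of -0.77, but the median was -0.01 in wild-type and -1.53 in knockout leukemias. Their summed level, given as the list mean, was 5.29 to 5.98 in 5 whole leukemia arrays, 9.21 in knockout whole leukemia array 2 and 5.27 to 5.84 in L-GMP. Without that array, 10 of 15 were lower and the median was -0.09. In the same array the neutrophil list mean was highest of all, at 10.38, against 7.70 to 9.82 in the other whole leukemia arrays and 6.70 to 8.31 in L-GMP, and the list means overlapped between the populations only in this range of 7.70 to 8.31. T and NK genes had a median difference of -0.08 over 17 tested members and list means of 5.13 to 5.58 in whole leukemia and 5.13 to 5.28 in L-GMP, and the median was -0.05 without knockout whole leukemia array 2 or wild-type L-GMP array 2. B cell genes had a median of -0.09 over 13, with Cd24a, an antigen that myeloid and erythroid cells also carry, at -1.50 (SE 0.60) and Ighm at -1.25 (SE 0.48). Stromal and endothelial genes had 0.00 over 14 and megakaryocyte genes -0.03 over 15. For mast cells, basophils and eosinophils, 18 genes had a median of 0.09, with a list mean of 7.04 in knockout L-GMP array 2 with the other L-GMP arrays at 6.04 to 6.35. Without that array 9 of the 18 were higher and 9 lower, with a median of -0.03. The part of these cells in the differences above was not tested. In sorted bulk samples such as these, fewer cells of a type and less RNA of that type per cell cannot be told apart.

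**Figure D2:**
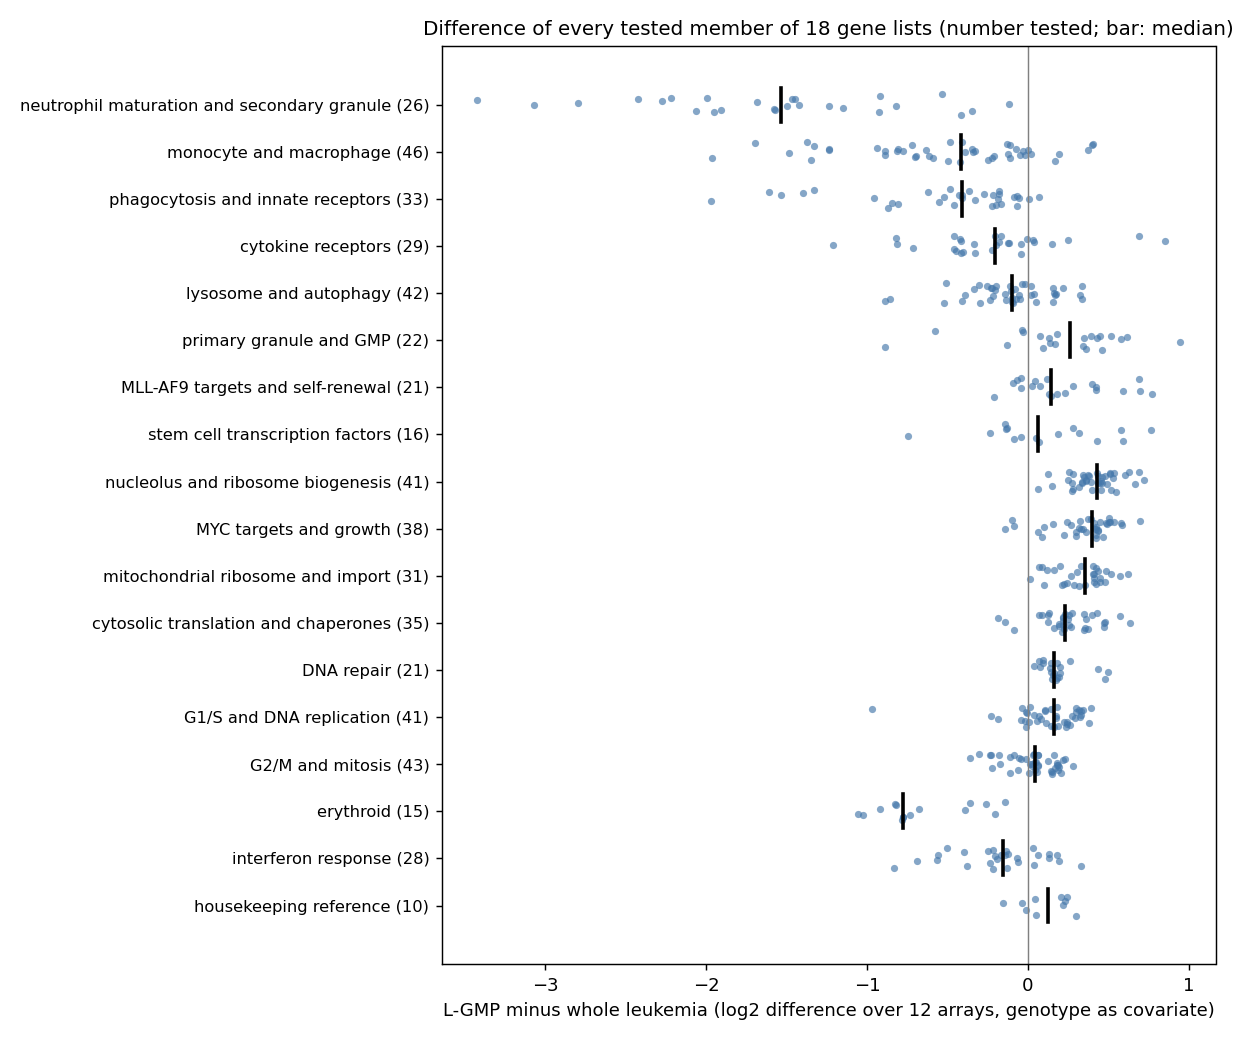
Difference of L-GMP minus whole leukemia on the log2 scale (horizontal axis) for every tested member of 18 gene lists (rows, with the number of members tested). Each point is a gene and each bar the list's median. The neutrophil list lies furthest to the left with a median of -1.53, the monocyte and phagocyte lists have -0.41 each, and the nucleolus list lies to the right of 0 in all 41 members.

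On the other side of the comparison stood the machinery of growth. All 41 tested genes of the nucleolus and ribosome biogenesis had higher values in L-GMP (51.4% of all genes did), with a median of 0.43. Of these, 15 were higher at an unadjusted p under 0.05 by limma (4.07% of all genes were). In 6 of 6 same-number differences 9 were higher (3.77% of all genes were). This list, like the MYC and mitochondrial lists below, was written with earlier results of these data known, so these counts carry no test. The list mean ran from 6.65 to 7.88 in whole leukemia and from 7.57 to 8.01 in L-GMP, so the populations overlapped. The median was 0.27 in wild-type and 0.57 in knockout leukemias. Without knockout whole leukemia array 2 it was 0.24, and all 41 remained higher; without both number-2 knockout arrays it was 0.20, with 40 of 41 higher. Npm1, the nucleolar chaperone nucleophosmin, measured 11.26, 11.37 and 11.13 in wild-type and 11.49, 10.82 and 11.09 in knockout whole leukemia. It measured 11.47, 11.66 and 11.52 in wild-type and 11.47, 11.74 and 11.20 in knockout L-GMP. It was higher in 5 of 6 same-number differences, the exception being knockout number 1, and the difference of 0.32 (SE 0.12) was of like size in both genotypes (0.30 and 0.34). The ribosome assembly gene Wdr74 had 0.45 (SE 0.15), the RNA acetyltransferase gene Nat10 0.60 (SE 0.21) and Rrp9 0.28 (SE 0.11). Nat10 had 0.22 in wild-type and 0.99 in knockout leukemias. Its value of 5.56 in 1 whole leukemia array lay well below its median there of 6.81, and its difference was 0.39 without knockout whole leukemia array 2.

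MYC targets and growth genes were higher in 35 of 38 tested members (51.4% of all genes were), with a median of 0.40. Of these, 13 were higher at an unadjusted p under 0.05 by limma (4.07% of all genes were). The median was 0.27 without knockout whole leukemia array 2 and 0.21 without both number-2 knockout arrays. The list mean ran from 7.56 to 8.54 in whole leukemia and from 8.16 to 8.74 in L-GMP. Myc itself, the growth-promoting transcription factor, measured 8.63, 8.50 and 8.90 in wild-type and 9.37, 6.94 and 7.88 in knockout whole leukemia. It measured 9.25, 8.88 and 9.24 in wild-type and 9.22, 9.36 and 8.45 in knockout L-GMP. The difference of 0.70 (SE 0.34, 95% interval -0.04 to 1.44) was 0.42 without knockout whole leukemia array 2. Prmt1, an arginine methyltransferase, had 0.50 (SE 0.18), with 0.48 in wild-type and 0.52 in knockout leukemias, and was higher in 6 of 6 differences, as was Ctps, the CTP synthase of nucleotide supply, at 0.48 (SE 0.18).

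The E-box CACGTG, the palindromic site that MYC and related factors recognise, was searched in the same promoter windows. It was in 7.64% of all 13700 promoters, in 26.5% of the MYC list (9 of 34) and in 2.78% of the nucleolus list (1 of 36). Since the MYC list was assembled from known MYC targets, a higher share there follows from how such genes are chosen. The 60 bases around the match are given for the 3 E-box genes of lowest p, in the direction of transcription with the E-box in capitals, at chr7:44986568-44986627 on the minus strand (Prmt1), chr5:129020012-129020071 on the plus strand (Ran) and chr2:30061836-30061895 on the plus strand (Set).
Prmt1: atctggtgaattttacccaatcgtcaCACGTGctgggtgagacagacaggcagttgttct
Ran: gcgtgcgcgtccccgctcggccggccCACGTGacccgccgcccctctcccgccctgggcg
Set: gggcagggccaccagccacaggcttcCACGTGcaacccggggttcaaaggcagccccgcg
Ran, the GTPase of nuclear transport, had a difference of 0.43 (SE 0.17), higher for every number, and Set, a histone chaperone, had 0.51 (SE 0.23). The E2F site (TTTCCCGC or TTTGGCGC) was in 14.7% of the MYC list, 8.33% of the nucleolus list and 2.16% of all promoters. The CHR element was in 29.4% of the MYC list and 5.56% of the nucleolus list, against 11.8% of all promoters. For the C/EBP site these were 0 of 34 and 5.56% (2 of 36), against 0.912%, counts too small to tell apart.

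Genes of mitochondrial ribosomes and protein import were higher in 31 of 31 tested members (51.4% of all genes were). At an unadjusted p under 0.05 by limma 11 were higher (4.07% of all genes were). The list median was 0.36. This was 0.19, with 29 of 31 higher, without knockout whole leukemia array 2, whose list mean of 6.69 lay below the 7.26 to 7.56 of the other whole leukemia arrays. The inner membrane translocase gene Timm50 had 0.45 (SE 0.14) and the outer membrane channel gene Tomm40 0.49 (SE 0.17), both higher in 6 of 6 differences. Genes of cytosolic translation and chaperones were higher in 32 of 35, with a median of 0.23, or 0.15 without knockout whole leukemia array 2. Among them Vars, the valyl-tRNA synthetase, had 0.48 (SE 0.13), with 0.53 in wild-type and 0.43 in knockout leukemias, and 0.43 also without both number-2 knockout arrays. Oxidative phosphorylation genes were higher in 36 of 42 with a median of 0.12, and TCA cycle genes in 21 of 25 with a median of 0.15. Both medians were smaller without both number-2 knockout arrays, at 0.02 and 0.04. Housekeeping genes used as a reference were higher in 7 of 10, with a median of 0.13, or 0.05 without knockout whole leukemia array 2 and 0.03 without both number-2 knockout arrays.

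The mean of each list in every array is shown next.

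**Figure D3:**
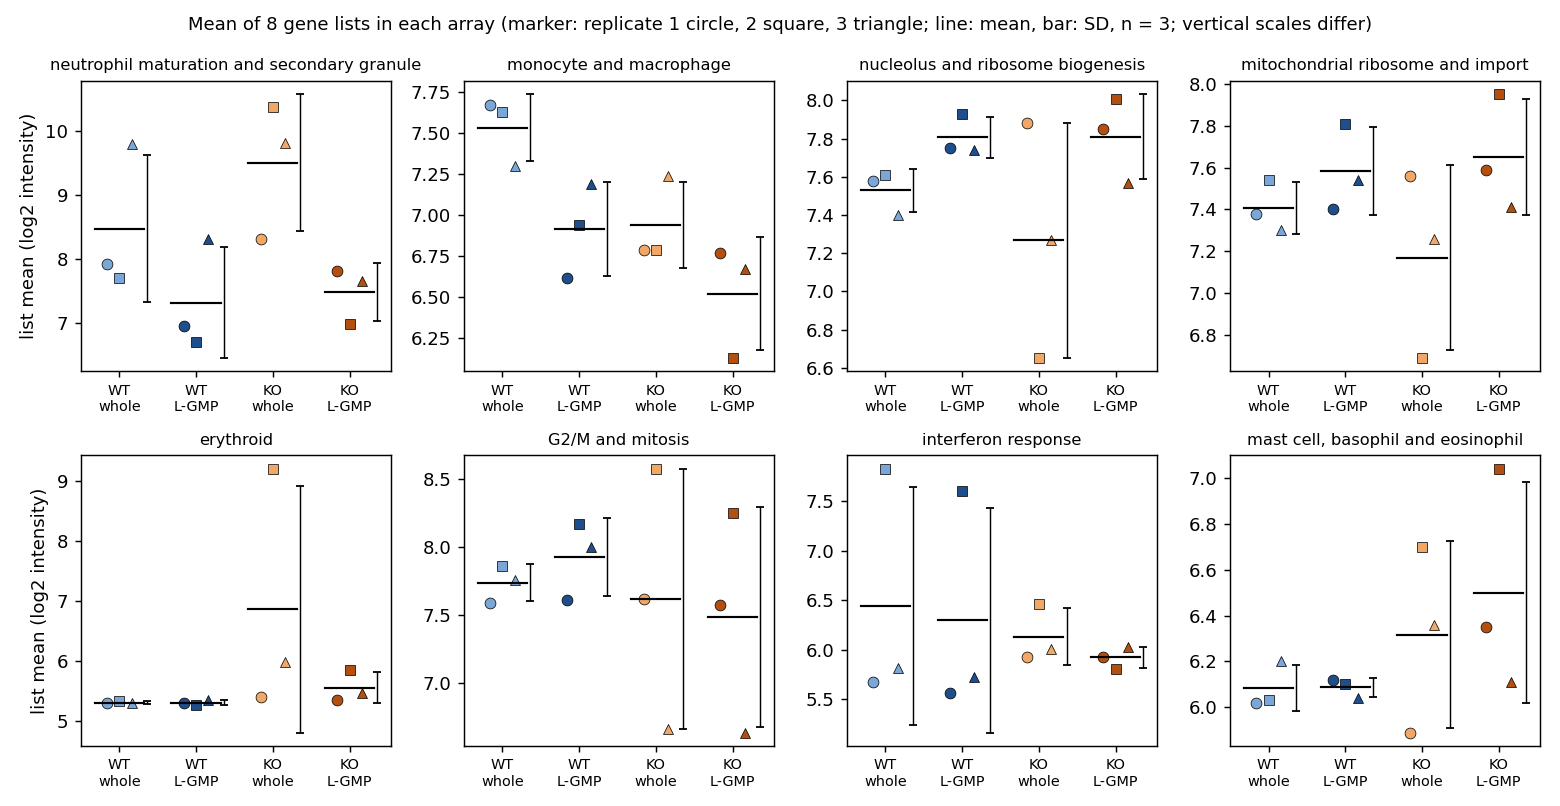
Mean log2 intensity of 8 gene lists (vertical axes, which differ between panels) in the 12 arrays, grouped by genotype and population (horizontal axis). Points are arrays with the marker giving the replicate number, lines are means and bars the SD of 3 arrays. Knockout whole leukemia array 2 is highest for the neutrophil (10.38) and erythroid (9.21) lists and lowest for the nucleolus (6.65) and mitochondrial (6.69) lists, and the interferon list is highest in both number-2 wild-type arrays (7.83 and 7.60).

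Cell cycle genes had small differences, and the direction of the G2/M list turned on single arrays. DNA repair genes were higher in 21 of 21 tested members with a median of 0.16, among them the checkpoint kinase gene Atm at 0.50 (SE 0.18). The count was 17 without knockout whole leukemia array 3 (median 0.12), 18 without knockout L-GMP array 2 and 20 without both number-2 knockout arrays (0.13 each), and without knockout L-GMP array 3 the median was 0.25. G1/S and DNA replication genes were higher in 32 of 41 with a median of 0.16, the DNA polymerase delta gene Pold1 at 0.33 (SE 0.11). That median was 0.07 without knockout whole leukemia array 3 or knockout L-GMP array 2, 0.10 without wild-type L-GMP array 2 and 0.27 without knockout L-GMP array 3. G2/M and mitosis genes had a median of 0.04, with 29 of 43 higher. Their count was 41 higher without knockout whole leukemia array 2 (median 0.26) and 40 higher without knockout L-GMP array 3 (0.27), but 33 lower without knockout L-GMP array 2 (-0.12) and 36 lower without knockout whole leukemia array 3 (-0.16). Among regulators of cycle entry, the kinase gene Cdk4 had 0.64 (SE 0.26), and the inhibitor gene Cdkn2d -0.70 (SE 0.29). Without knockout whole leukemia array 2 these were 0.47 and -0.45.

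The stem and progenitor program had small differences from whole leukemia. MLL-AF9 target and self-renewal genes were higher in 16 of 21 tested members (51.4% of all genes were), with a median of 0.14. At an unadjusted p under 0.05 by limma 0 were higher and 0 lower, against 4.07% and 3.89% of all genes. In so few members a count of 0 cannot be told from those shares. Leaving out knockout whole leukemia array 2 gave a median of 0.07, and leaving out knockout L-GMP array 3 gave 0.09. Leaving out either knockout whole leukemia array 3 or wild-type L-GMP array 3 gave 0.24. Meis1, the homeobox cofactor of HOXA9, measured 8.14, 8.62 and 8.78 in wild-type and 7.27, 6.65 and 8.30 in knockout whole leukemia. It measured 9.11, 8.70 and 8.69 in wild-type and 8.88, 7.18 and 8.74 in knockout L-GMP. It was higher in 5 of 6 same-number differences, by 0.59 (SE 0.33, 95% interval -0.14 to 1.32), or 0.39 without knockout whole leukemia array 2. Hoxa9 had 0.14 (SE 0.35), and its sign turned to -0.17 without knockout whole leukemia array 2. Bcl2, the survival gene, was higher in 6 of 6 differences with 0.77 (SE 0.38). Gata2, a transcription factor of stem cells and early progenitors, was higher in 6 of 6 same-number differences (before rounding in wild-type number 3), with 0.58 (SE 0.18), 0.37 in wild-type and 0.79 in knockout leukemias. Sox4, a factor that blocks differentiation in leukemia models, measured 5.02 to 5.75 in whole leukemia and 5.40 to 8.53 in L-GMP, where the 8.53 was 1 array, knockout L-GMP array 2. Its difference of 0.77 was 0.30 without that array.

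Besides Cd34, only Adgrg1 and Mir1949 were higher by at least 1 log2. Adgrg1 (GPR56), an adhesion receptor of hematopoietic stem cells, measured 5.46, 5.96 and 5.91 in wild-type and 5.30, 5.91 and 5.50 in knockout whole leukemia. It measured 6.24, 7.0 and 5.94 in wild-type and 6.50, 8.65 and 6.44 in knockout L-GMP. It was higher in 6 of 6 same-number differences, with a value of 1.12 (SE 0.38) that was 0.74 without knockout L-GMP array 2. The microRNA locus Mir1949 had 1.02 (SE 0.27), with 5.08 to 6.97 in whole leukemia and 6.59 to 7.73 in L-GMP. Among genes of surface receptors, cytokine receptors were lower in 23 of 29 with a median of -0.21, among them the common beta chain gene Csf2rb at -0.45 (SE 0.13) and the interleukin-13 receptor gene Il13ra1 at -1.21 (SE 0.37). Of the adhesion and homing receptors 25 of 31 were lower, with a median of -0.12 (-0.07 without knockout whole leukemia array 3), and the integrin genes Itgal and Itgb2 had -0.43 (SE 0.13) and -0.96 (SE 0.35).

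Primary granule genes, made at the progenitor stage, were split by gene. Of 22 tested members 17 were higher in L-GMP and 5 lower, with a median of 0.26, which was 0.09, with 15 of 22 higher, without knockout whole leukemia array 2, and 0.39 without wild-type whole leukemia array 3. Cst7, the protease inhibitor cystatin F, measured 8.94, 8.43 and 8.11 in wild-type and 8.82, 8.0 and 8.30 in knockout whole leukemia. It measured 9.67, 8.97 and 8.74 in wild-type and 8.63, 10.84 and 9.44 in knockout L-GMP. The difference was 0.95 (SE 0.34), higher in 5 of 6 same-number differences, and 0.64 without knockout L-GMP array 2. The neutrophil proteases Prtn3 and Ctsg were higher in 6 of 6 differences, at 0.52 (SE 0.22) and 0.61 (SE 0.31), while myeloperoxidase, Mpo, and neutrophil elastase, Elane, had 0.46 (SE 0.40) and 0.39 (SE 0.29). Without knockout whole leukemia array 2, Prtn3 had 0.30, Ctsg 0.28 and Elane 0.08, and without knockout L-GMP array 2, Mpo had 0.23. The lysozyme genes went the other way. Lyz2, the lysozyme that monocytes, macrophages and neutrophils keep making, had -0.89 (SE 0.31), with -0.90 in wild-type and -0.89 in knockout leukemias, and its near-identical neighbour Lyz1 had -0.58 (SE 0.19), so that their values are uncertain. Of the myeloid transcription factors, Cebpb, the C/EBP factor of late and emergency granulopoiesis, measured 7.38 to 7.87 in whole leukemia and 6.30 to 7.38 in L-GMP, without overlap before rounding. Its difference was -0.47 (SE 0.16), or -0.32 without knockout L-GMP array 2. Maf had -0.62 (SE 0.20) and Id2 -1.25 (SE 0.46), while Cebpa, Cebpe and Spi1, which encodes PU.1, had 0.35 (SE 0.22), -0.33 (SE 0.35) and -0.18 (SE 0.20), with Cebpa at 0.14 without knockout whole leukemia array 2.

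Among the genes with higher values in L-GMP and the lowest p, most had no list. Cwf19l1 measured 6.44, 6.74 and 6.49 in wild-type and 6.50, 6.02 and 6.48 in knockout whole leukemia. It measured 7.04, 7.21 and 6.79 in wild-type and 6.96, 7.41 and 6.93 in knockout L-GMP. The populations did not overlap, with a difference of 0.61 (SE 0.13, 95% interval 0.33 to 0.89, 1.53-fold, adjusted p = 0.613 by limma). Wtap, a subunit of the RNA m6A methyltransferase complex, had the most even values, from 6.66 to 6.91 in whole leukemia and 6.97 to 7.12 in L-GMP, and a difference of 0.25 (SE 0.05). Smyd2, a lysine methyltransferase, ranged from 5.79 to 6.58 in whole leukemia and from 6.70 to 7.11 in L-GMP, a difference of 0.62 (SE 0.14). The deadenylase complex gene Cnot10 (0.43, SE 0.09), the zinc finger gene Zfp184 (0.39, SE 0.08) and Cuedc1 (0.24, SE 0.06) also had all arrays apart. Ccdc77 (0.42, SE 0.08), Trim44 (0.51, SE 0.11), Tespa1 (0.86, SE 0.20), the acetyltransferase complex gene Kansl2 (0.59, SE 0.14) and Tmco4 (0.37, SE 0.09) overlapped between populations. None of these passed.

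In the metabolic lists no member passed. The glucose transporter genes Slc2a1 and Slc2a6 had -0.48 (SE 0.20) and -0.42 (SE 0.15) and the lactate exporter gene Slc16a3 -0.42 (SE 0.13), while the glucose transport and glycolysis list as a whole had 13 of 24 higher and a median of 0.01, which was -0.05 to 0.02 with 1 array left out. Lysosome and autophagy genes were lower in 29 of 42 with a median of -0.10, among them Psap, the sphingolipid activator precursor (-0.52, SE 0.18), and the protease gene Ctsl (-0.51, SE 0.18). Without wild-type L-GMP array 1 their median was -0.06. In the antioxidant list the heme oxygenase gene Hmox1 had -1.10 (SE 0.37) and the glutathione transferase gene Gstp1 0.48 (SE 0.16), and the list median was -0.02 over 26, or -0.04 to 0.05 with 1 array left out. Chromatin regulators of leukemia were higher in 27 of 36 with a median of 0.09, among them the polycomb gene Bmi1, required for self-renewal of leukemic stem cells, at 0.26 (SE 0.09) and higher in 6 of 6 differences.

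MicroRNA loci were on the array as hairpin genes, so a value measures the locus or its host transcript and not the mature strand. Of 241 tested microRNA genes, 1 was lower by at least 1 log2 and 1 was higher, the latter being Mir1949 above. Mir15a measured 6.49, 8.48 and 7.14 in wild-type and 7.08, 7.87 and 7.58 in knockout whole leukemia. It measured 5.37, 7.77 and 6.49 in wild-type and 6.74, 6.68 and 5.53 in knockout L-GMP, lower for every number, with a difference of -1.01 (SE 0.43). The miR-15 family is known to target BCL2, which is why its mature strands are shown. Bcl2 itself had the value of 0.77 given above, and a link between Mir15a and Bcl2 was not tested. Mir409 had the lowest p of the microRNA genes, with -0.31 (SE 0.07) at levels of 4.48 to 5.28, near the dim filter. The mature strands are those of RefSeq (GRCm38.p6), with the seed, bases 2 to 8, in capitals. They lie at chr14:61632075-61632096 and chr14:61632038-61632059 on the minus strand for Mir15a, and at chr12:109743204-109743225 on the plus strand for Mir409.
miR-15a-5p: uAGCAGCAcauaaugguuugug
miR-15a-3p: cAGGCCAUacugugcugccuca
miR-409-3p: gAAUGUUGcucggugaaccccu
The 3 seeds differ from each other.

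The genotypes were then set side by side. By limma 0 genes were called in the wild type alone (lowest adjusted p = 1.0), 0 in the knockout alone (lowest adjusted p = 0.0743, for Cd34) and 0 for the interaction (lowest adjusted p = 1.0). The knockout contrast called 40 genes without knockout whole leukemia array 1 and 0 without any other single array. Across the 17749 genes, the wild-type and knockout differences, which share no array, correlated at a Pearson coefficient of 0.50 and a Spearman coefficient of 0.33, and 59.3% had the same sign. Genes are not independent replicates, so these values describe the arrays and carry no test. Of the 102 genes lower by at least 1 log2, 86 had the larger difference in the knockout, as had 58.0% of all genes by size. That set leans on the number-2 knockout arrays, without which 56 genes were lower by at least 1 log2. The 3 of the 102 that were not lower in the wild type were the erythroid genes Slc4a1 (0.01 in the wild type) and Car2 (0.00) and the apolipoprotein gene Apol11b (0.07).

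**Figure D4:**
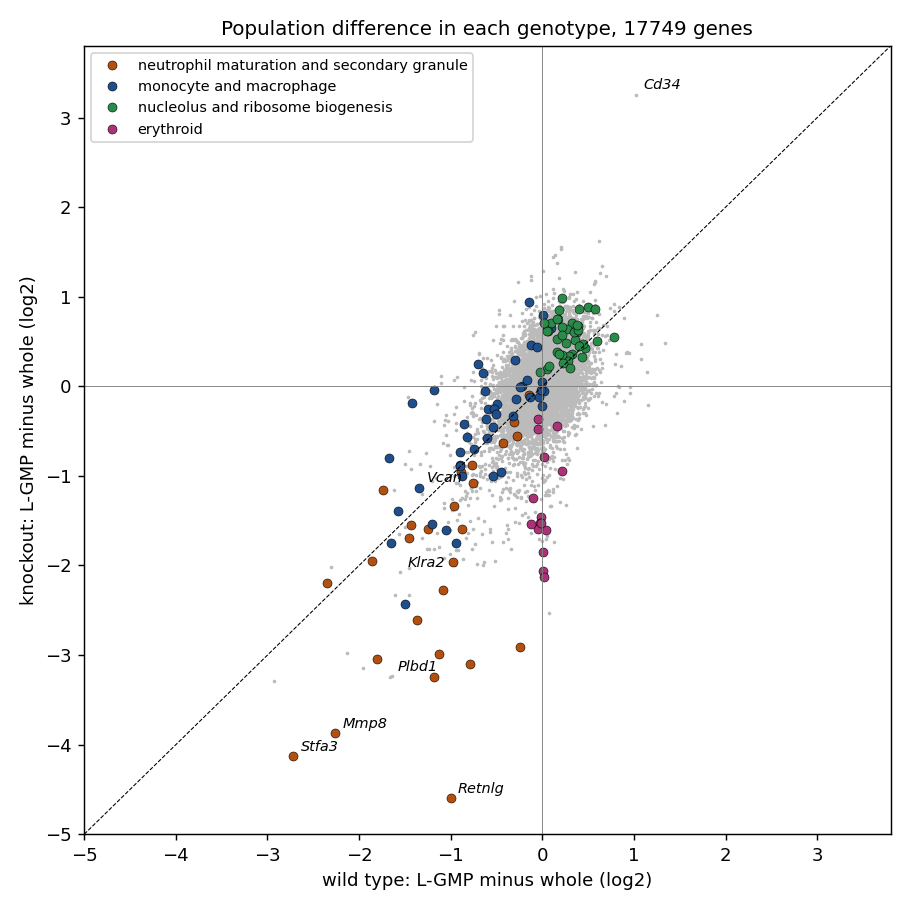
Population difference of each of the 17749 tested genes in the knockout (vertical axis) against the wild type (horizontal axis), as log2 of L-GMP minus whole leukemia, with 4 gene lists in colour, all other genes in grey and the line of equal values dashed. Neutrophil genes lie below 0 in both genotypes, nucleolus genes lie above 0 with medians of 0.27 (wild type) and 0.57 (knockout), and erythroid genes spread along the knockout axis near 0 in the wild type, with medians of -0.01 and -1.53.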

How the data were processed

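The authors deposited one intensity value per probe set and array, on a linear scale from 17.96 to 9108.2 over 33794 probe sets, with array medians of 36.9 to 39.3. Per the labels' protocols, RNA of 5000 sorted cells was amplified with a NuGEN Ovation kit, and the cDNA carried biotin. Which software and normalization were used is not given in the sources used here. Values were taken to log2 with no pseudocount. The platform annotation gave 1 symbol for 23521 probe sets, several for 1814 and none for 8459; 99.2% of gene identifiers were in RefSeq's GRCm38.p6 table, which changed 0 symbols. A gene took its single-symbol probe set of highest mean, and 4431 genes in the lowest 25% of probe sets (log2 under 4.72) were left out. Unnamed probe sets were tested apart, with 0 of 6500 called by limma. Compression near background makes fold differences of dim genes too small, and 12 arrays limit the precision.

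Limma 3.58.1 in R 4.3.3 fitted genotype and population over 12 arrays (9 residual and 2.39 prior degrees of freedom), with calls at an adjusted p (Benjamini-Hochberg) under 0.05; a fit with 1 mean per group gave the genotypes apart. Single values had an exact permutation test (scipy 1.17.1). Scripts were tested on simulated data. The labels give no shared animal for equal replicate numbers. Deviations of same-numbered arrays correlated at 0.36, 0.62 and 0.30 in the wild type and 0.13, 0.09 and 0.43 in the knockout. Because the labels do not state pairs, the main fit did not treat numbers as pairs, and the fit with the replicate block is given as an alternative. Counts of same-number differences are descriptive and do not establish that such arrays share an animal. The comparison and the 44 gene lists (1158 genes, 1004 of them tested) were chosen with earlier results of these data known. Named genes were the 12 of lowest p in each direction, as none was called, per list the 3 of lowest p or fewer, the gate genes and the AMPK catalytic subunits. Predicted genes were counted and not named. Genes past 1 log2, genes with all arrays apart and other list members named as known markers were chosen after their values were seen. Alternatives were other blocks, models, filters, scalings, probe set rules and left-out arrays.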

Additional observations from a re-analysis of the deposited data

Results flagged for a closer look

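Over 164 sets of 6 arrays of one population, the highest or lowest array stood clear of the rest in 15, and chance gives this in about 1 in 20. In knockout whole leukemia array 2 the erythroid list mean was 9.21 (5.29 to 5.98 in the others), the mitochondrial ribosome and import list mean was 6.69 (7.26 to 7.56) and Lilrb4a measured 11.50 (8.94 to 9.85). In knockout L-GMP array 2 the mast cell, basophil and eosinophil list mean was 7.04 (6.04 to 6.35), the erythroid list mean was 5.84 (5.27 to 5.47), Fcgr4 measured 5.41 (6.70 to 7.46) and Ptprc 8.96 (9.47 to 9.70). The interferon response list mean was 7.83 in wild-type whole leukemia array 2 (5.68 to 6.46 in the others) and 7.60 in wild-type L-GMP array 2 (5.56 to 6.03), where Ly6c1 measured 5.44 (4.68 to 4.94). The phagocytosis list mean was 6.94 in knockout whole leukemia array 1 (7.45 to 7.72), and the G1/S list mean was 7.24 in knockout L-GMP array 3 (7.72 to 7.95). In wild-type L-GMP array 3 the list mean of AMPK subunits and upstream kinases was 7.04 (6.77 to 6.87) and Marchf1 measured 5.76 (5.06 to 5.25). Ptprj measured 6.57 in wild-type L-GMP array 1 (7.53 to 7.82).

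The G2/M and mitosis list mean was higher in L-GMP for every number in the wild type, by 0.19 on average, and lower for every number in the knockout, with a difference of -0.13. The knockout value minus the wild-type value was -0.32, and this difference was not tested.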

How the results depend on the processing

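Limma called 0 genes in the comparison over both genotypes under every alternative run. The lowest adjusted p lay between 0.057 (without wild-type L-GMP array 3) and 0.974 (without both number-2 knockout arrays). Leaving out 1 array at a time, genes at an unadjusted p under 0.05 numbered 465 to 1219 higher and 477 to 1043 lower, with the high ends without knockout whole leukemia array 1 and 465 without knockout L-GMP array 2. Without both number-2 knockout arrays there were 399 and 459. Genes higher by at least 1 log2 numbered 2 to 11 with 1 array left out (11 without wild-type L-GMP array 3), 1 with a pseudocount of 16 and 8 where the wild-type number-2 arrays were both left out. Genes lower by at least 1 log2 numbered 74 to 162 with 1 array left out, 66 with array weights and 56 without both number-2 knockout arrays. Within the knockout, calls numbered 0 to 40, the 40 without knockout whole leukemia array 1. With the replicate block of genotype and number, 0 genes were called (lowest adjusted p = 0.296), with 990 higher and 839 lower at an unadjusted p under 0.05; with number alone as a block these were 777 and 768. For 5 of the 6 whole leukemia arrays the L-GMP array of the same genotype that correlated best was the one of equal number, a hint of pairing from the data and not from the design. No scaling moved the median of all genes by more than 0.02.

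Among the single genes named, 13 values changed sign, for Fcgr1, Ly6c1, Ly6c2 and Hoxa9. Hoxa9 ranged from -0.17 to 0.32 with 1 array left out, with -0.17 without knockout whole leukemia array 2, -0.02 without both number-2 knockout arrays and -0.01 with array weights. Fcgr1 had -0.02 with array weights, without knockout L-GMP array 2 and without both number-2 knockout arrays, and -0.01 without wild-type whole leukemia array 3. Ly6c1 ranged from -0.13 to 0.07 with 1 array left out, with 0.07 without wild-type whole leukemia array 2, 0.05 without knockout whole leukemia array 3 and 0.01 without wild-type L-GMP array 1, knockout L-GMP array 2 or both number-2 knockout arrays. Ly6c2 had -0.00 without both number-2 knockout arrays. The cause was not tested.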

Other observations

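Interferon response genes had no shared direction. Of 28 tested members 20 were lower in L-GMP with a median of -0.15, but 20 were higher with a median of 0.17 without wild-type whole leukemia array 2, 27 were lower with -0.41 without wild-type L-GMP array 2, and 15 were higher with 0.02 without wild-type L-GMP array 1. Without wild-type L-GMP array 3 the median was -0.03. Isg20, an interferon-induced exonuclease, had a difference of -0.83 (SE 0.50) and Rsad2, the antiviral viperin, one of -0.69 (SE 0.53), which were -0.30 and -0.15 without knockout whole leukemia array 2. Antigen presentation genes were even, 12 of 23 higher, with the peptide transporter gene Tap2 at 0.25 (SE 0.07) and all 6 arrays of each population apart, and the costimulatory genes Cd80 and Cd86 at -0.80 (SE 0.29) and -0.40 (SE 0.18), the latter -0.22 without knockout whole leukemia array 2. Inflammatory cytokine and NF-kB genes were lower in 23 of 25 with a median of -0.15, among them the interleukin-1 receptor antagonist gene Il1rn at -0.86 (SE 0.23) and the chemokine gene Ccl5 at -0.83 (SE 0.28). In the p53 and apoptosis list the stress gene Trp53inp1 had -1.52 (SE 0.42) and the survival gene Mcl1 -0.37 (SE 0.11), with a list median of -0.09 over 24, or -0.05 without knockout L-GMP array 2, and -0.06 without wild-type whole leukemia array 1 or knockout whole leukemia array 1 or 3.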
